A study of Homo sapiens with 13 samples.

Results

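The 10 genes described here encode histone-modifying enzymes, and subunits of their complexes, examined in SCLC, small cell lung cancer. They are EZH1, EZH2, EED and SUZ12 of Polycomb, KMT2C, KMT2D, KDM6A and KDM5A of histone methylation, and the acetyltransferases CREBBP and EP300. All 10 were found by symbol in GENCODE release 44 on hg38, out of 19970 protein-coding genes on chromosomes 1 to 22 and X. Open chromatin was measured by ATAC-seq, in which the transposase Tn5 cuts and tags accessible DNA, in H82 and H146. Both are established human SCLC lines. H82 was left untreated in 3 libraries and given FHD-286 in 3, and H146 was left untreated in 4 and given FHD-286 in 3. FHD-286 inhibits SMARCA4 and SMARCA2, the ATPase subunits of the SWI/SNF remodelers, and was used at 100 nM for 14 days. Of the H146 controls, 3 were sequenced apart from the treated cells, per the methods of the study. The labels name no genotype beyond the line and no age. Neither the mutations nor the DNA copies that a line carries at these genes were measured.

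Polycomb repressive complex 2 (PRC2) places methyl groups on lysine 27 of histone H3 (H3K27) and so keeps developmental genes silent. EZH2, or its homolog EZH1, is the catalytic subunit, SUZ12 is the scaffold, and EED reads the finished mark and stimulates the enzyme. KMT2C and KMT2D methylate lysine 4 of the same histone at enhancers, inside complexes that also hold the H3K27 demethylase KDM6A. KDM5A removes methyl groups from lysine 4, and CREBBP and EP300 are paralogs that acetylate histones, H3K27 included. In SCLC, EZH2 is typically abundant, and CREBBP, EP300 and KMT2D are among the recurrently mutated genes.

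The data were 1 list of accessible regions per line, each pooled over its untreated and treated libraries, with a chromosome, a start and an end for each region and no height. What follows are therefore counts and widths of regions, given without a test: a list is 1 value per line, no value has a spread between cultures, and FHD-286 could not be set against untreated cells. The line, the number of libraries, their depth, the sequencing batches and the DNA copies cannot be told apart in any difference between H82 and H146. The H82 list held 206776 regions over 167 Mb and the H146 list 173956 over 139 Mb, which made H82 1.20 times wider in covered bases (0.27 on the log2 scale), and 59.3% of H82 and 70.5% of H146 regions overlapped the other list. NEUROD1, the subtype factor of H82, had a region over its start in H82 and none in H146, whereas SYP and CHGA had a region there in both.

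The lists had many region edges in common, and why was not tested. Of 113519 pairs in which 1 region of each line overlapped 1 of the other, 30.4% began at the very same base, 30.4% ended at the same base and 16.9% did both, while only 537 starts lay 1 bp apart. At the 10 genes and 50 kb to either side, 22 of 79 such pairs (27.8%) had a common start or end and 6 had both. The latter were 2 upstream of EED, 2 inside KMT2D and 2 inside CREBBP. Whether this affected which regions count as common to both lines was not tested. Without the regions that had such an edge, 48.1% of the H82 and 60.6% of the H146 regions at these genes still overlapped the other line.

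The first question was whether the start of each gene was open. A region lay within 1 kb of the annotated 5′ end of 9 of the 10 genes in both lines, against 75.5% of all protein-coding genes. EED was the exception and had none in either line, a state shared by 17.5% of all genes. No member had a start open in H82 alone (5.11% of all genes) or in H146 alone (1.86%). The GENCODE 5′ end of EED is that of 1 of its 14 transcripts, and the start of its MANE Select transcript, the one chosen as representative, lies 43541 bp further in. There a region was listed in both lines, so that 10 of the 10 genes were open at the MANE Select start, against 78.7% of 19016 genes with such a transcript. This second start was added after the data were seen.

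**Figure D1:**
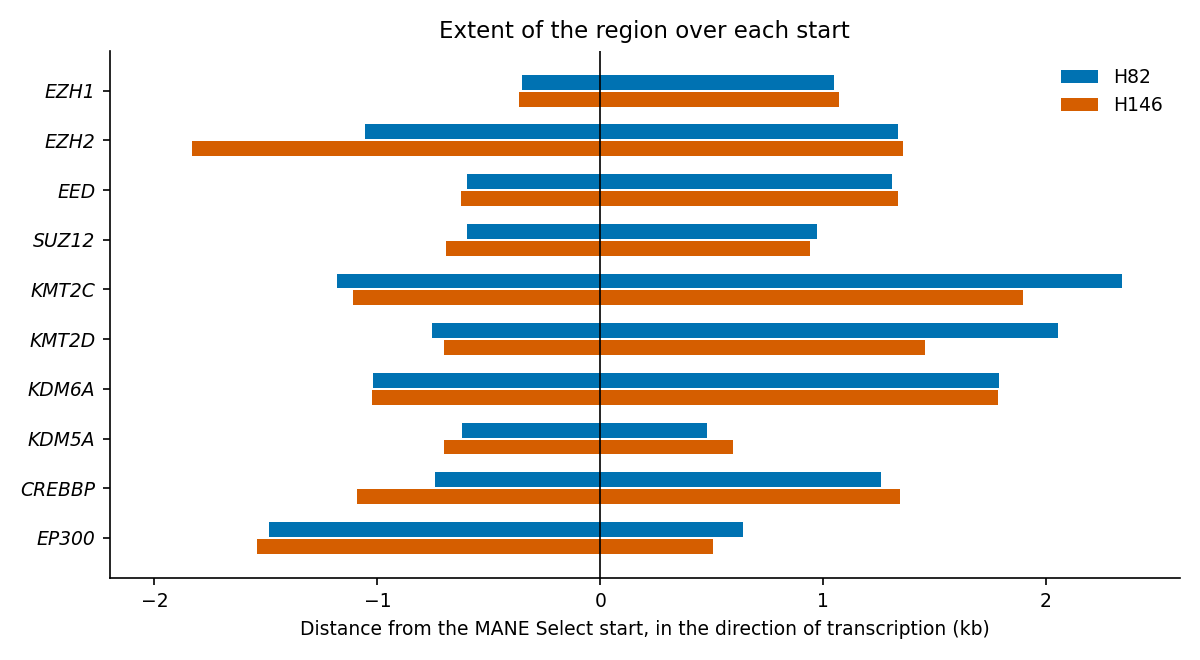
Extent of the accessible region over the MANE Select start of each of the 10 genes in H82 (blue) and H146 (orange), in kb from the start along the direction of transcription. Each bar is 1 region of the pooled list, without an error. The bars of the lines lie over each other at KDM6A, EZH1 and EED, and differ most in length at EZH2, where H146 reaches 1833 bp upstream and H82 1057 bp. A separate H82 region of 258 bp further upstream, not drawn, also overlaps the H146 region of EZH2.

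The regions over the starts were of like extent in both lines. At the MANE Select start their median width over the 10 genes was 2064 bp in H82 and 2101 bp in H146, against 1832 and 1732 bp at the 5′ ends of all genes open there in both lines. At KDM6A the regions of the lines, 2808 and 2812 bp wide, had 99.8% of their joint length in common. The lowest common share was 74.9%, at EZH2, whose region was 2392 bp wide in H82 and 3194 bp in H146. KMT2D and KMT2C went the other way: 2811 bp in H82 against 2155 bp in H146 for KMT2D, and 3525 bp against 3007 bp for KMT2C. The start of KDM5A carried the narrowest region, 1100 bp in H82 and 1296 bp in H146, which also lay over the start of CCDC77, a neighbor on the opposite strand.

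Promoter sequences of all 10 genes, 250 bases before to 50 after the RefSeq start, were taken from RefSeq (GRCh38.p14), and each lay wholly within a region in both lines. For EZH2 and CREBBP this window lay wholly inside the gene, downstream of the MANE Select start. It was chr7:148883436-148883735 against a start at 148884291 for EZH2, and chr16:3880071-3880370 against 3880713 for CREBBP. The 10 sequences were rich in CpG: the median was 35 CpG and 70% GC per 300 bases, against 21 and 62.3% over 21548 protein-coding promoters. SP/KLF factors, whose word GGGCGG was found on either strand in 8 of the 10 promoters, had it in 56.8% of all promoters. The words TTTCCCGC, TTTCGCGC, TTTGCCGC and TTTGGCGC of E2F, the factors that RB1 restrains, were found in EZH1 and SUZ12, and in 4.14% of all promoters. CCAAT of NFY was found in EED, SUZ12 and KDM6A (34.8% of all), CCGGAAG of ETS factors in KDM5A (12.9%), GCGCATGCG of NRF1 in EZH1 (2.34%), and CAGATG or CAGCTG, the E-box forms of neural basic helix-loop-helix factors, in EED and KDM5A (27.6%). AAGATGGCG of YY1 (2.45% of all) and TGACGTCA of CRE factors (2.29%) were in none of the 10 promoters of 300 bases. A word is a string of letters and says nothing of whether a factor was bound.

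The 4 PRC2 promoters and that of KDM5A are shown because they hold the E2F, NRF1 and ETS words or, for EZH2 and EED, none of them. For EZH2 this holds for the RefSeq window only, and the 300 bases at its MANE Select start were not searched separately. Capitals mark words of E2F, NRF1, ETS, YY1 and CRE on either strand, and each sequence is read along the strand of its gene.
EZH1, chr17:42744991-42745290, minus strand: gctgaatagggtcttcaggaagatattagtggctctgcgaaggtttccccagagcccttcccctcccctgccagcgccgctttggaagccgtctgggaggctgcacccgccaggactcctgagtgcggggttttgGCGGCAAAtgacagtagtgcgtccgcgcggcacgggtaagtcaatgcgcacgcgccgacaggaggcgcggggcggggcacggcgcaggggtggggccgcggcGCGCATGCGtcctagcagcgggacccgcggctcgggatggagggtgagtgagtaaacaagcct
EZH2, chr7:148883436-148883735, minus strand: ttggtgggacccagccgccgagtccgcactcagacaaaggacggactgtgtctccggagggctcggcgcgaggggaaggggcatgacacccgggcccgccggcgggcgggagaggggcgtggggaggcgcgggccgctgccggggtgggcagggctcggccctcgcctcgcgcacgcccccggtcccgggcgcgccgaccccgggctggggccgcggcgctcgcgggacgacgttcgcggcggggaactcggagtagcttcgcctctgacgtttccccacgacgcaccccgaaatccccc
EED, chr11:86244503-86244802, plus strand: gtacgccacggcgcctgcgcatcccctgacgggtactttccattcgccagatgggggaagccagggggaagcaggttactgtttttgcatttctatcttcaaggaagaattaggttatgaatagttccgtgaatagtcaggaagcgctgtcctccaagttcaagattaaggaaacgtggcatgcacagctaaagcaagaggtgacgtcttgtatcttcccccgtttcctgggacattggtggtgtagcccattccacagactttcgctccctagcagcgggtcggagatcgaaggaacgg
SUZ12, chr17:31936757-31937056, plus strand: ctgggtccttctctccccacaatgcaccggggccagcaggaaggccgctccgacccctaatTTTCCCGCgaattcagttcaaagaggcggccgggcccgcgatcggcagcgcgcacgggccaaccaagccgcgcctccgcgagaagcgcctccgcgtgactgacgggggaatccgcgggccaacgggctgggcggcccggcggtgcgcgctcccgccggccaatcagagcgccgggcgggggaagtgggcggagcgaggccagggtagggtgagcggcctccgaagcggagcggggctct
KDM5A, chr12:389271-389570, minus strand: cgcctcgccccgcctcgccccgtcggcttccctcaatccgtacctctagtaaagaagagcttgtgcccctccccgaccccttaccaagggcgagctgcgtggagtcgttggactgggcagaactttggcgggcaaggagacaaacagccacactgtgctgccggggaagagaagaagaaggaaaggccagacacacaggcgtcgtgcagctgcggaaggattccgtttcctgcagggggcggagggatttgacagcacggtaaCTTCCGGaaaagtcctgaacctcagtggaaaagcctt
In EZH1 the E2F and NRF1 words stand apart on either side of the middle, and in SUZ12 the E2F word stands in the first part of the window. EED had the lowest GC content of the 10, 52.3%, with 16 CpG. When the whole H82 region over the MANE Select start was searched in place of the 300 bases, an E2F word was found in 7 genes (EZH1, EZH2, EED, SUZ12, KMT2C, KDM6A and EP300), against 18.6% of 16107 genes with such a region at their 5′ end. The YY1 word was in 4 of the member regions (KMT2C, KDM6A, CREBBP and EP300), against 6.16%. ETS words were in 4 (34.6%), NRF1 in 2 (4.98%) and CRE in 0 (5.08%). NFY was in 8 (76.4%), the E-box in 6 (80.4%) and SP/KLF in 10 (87.7%). These windows were wider and their widths were not matched between the genes.

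The second question was how much of each gene and of its surroundings was open. Over the gene body and 50 kb to either side, 2 of the 10 genes, EZH2 and EP300, had a covered share at least 1.5 times higher in H82, against 29.0% of 19275 genes with at least 5 regions. None had it in H146, against 4.89%. In number of regions, EZH1, EZH2, KDM5A and EP300 were at least 1.5 times higher in H82 (30.2% of all genes) and none in H146 (5.94%). With 10 genes, counts of 2 and 4 are near that background. The median log2 ratio of H82 to H146 in covered share was 0.24 over the 10 genes and 0.20 over all genes. After each line was divided by its own covered total, EZH2 stayed past 1.5-fold in H82, EP300 did not, and CREBBP passed it in H146.

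**Figure D2:**
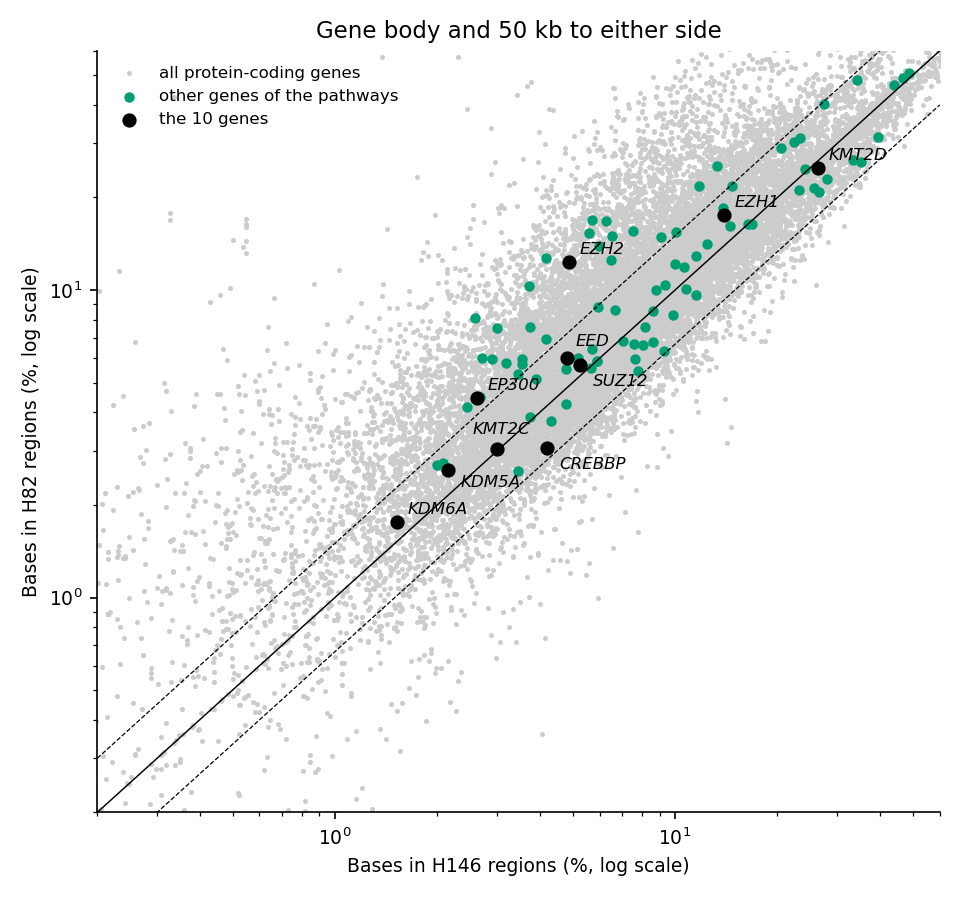
Share of the gene body and 50 kb to either side that lay in listed regions, in percent on log axes, for H146 (x) and H82 (y). Grey points are protein-coding genes (592 of 19970 fall outside the axes or at 0 in a line), green points 79 other genes of the same pathways and black points the 10 genes. The solid line marks equal shares and the dashed lines 1.5-fold; EZH2 and EP300 lie above the upper dashed line.

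**Figure D3:**
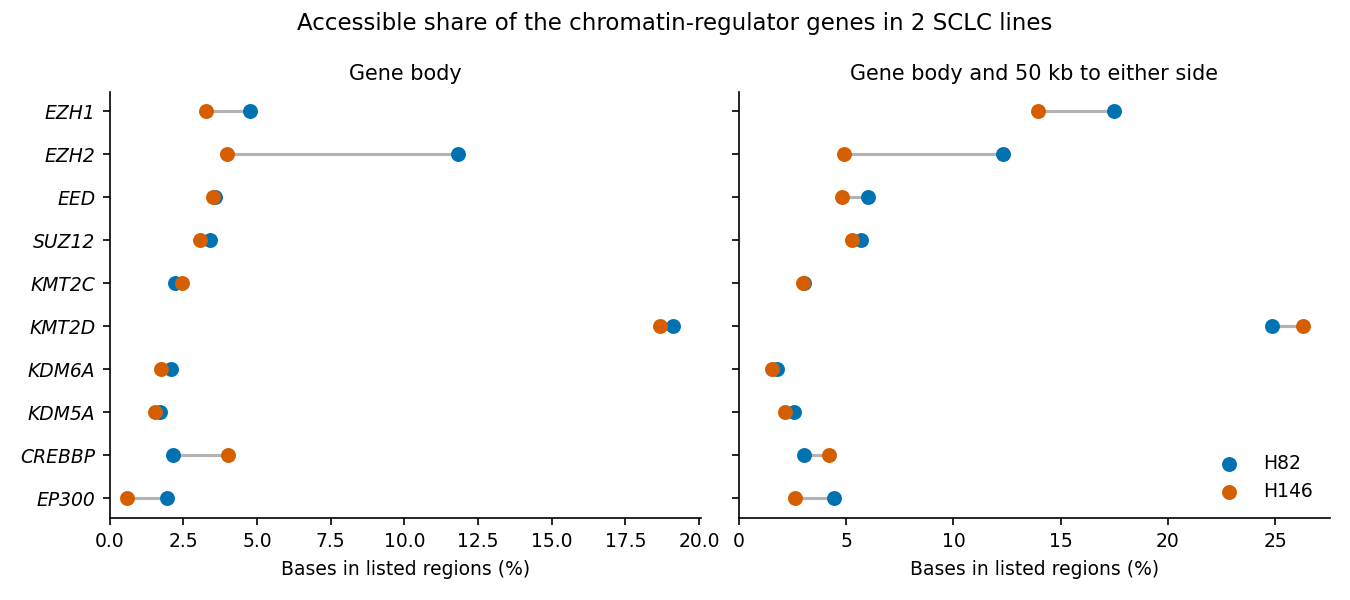
Percent of bases in listed regions for each gene in H82 (blue) and H146 (orange), over the gene body (left) and with 50 kb to either side (right). Each point is 1 pooled list, without an error. EZH2 shows the widest gap in percentage points, 11.8% against 3.98% of the gene body, KMT2D the highest level, and in CREBBP H146 lies above H82.

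EZH2, the gene of the main PRC2 methyltransferase, had the highest ratio of the 10 in covered share over gene and 50 kb flanks; in the gene body alone and in number of regions EP300 exceeded it, and with 10 kb flanks EZH1 did. It lies at chr7:148807257-148884321 on the minus strand (ENSG00000106462.12). Its body held 10 regions in H82 and 5 in H146, which covered 11.8% and 3.98% of it. In the 50 kb upstream there were 11 regions over 18.2% in H82 and 3 over 6.17% in H146, and in the 50 kb downstream 5 in each line over 7.20% and 4.98%. The difference was largest in the gene (2.97 times) and upstream of it (2.95 times), and smaller downstream (1.44 times). Gene and flanks together were covered to 12.3% in H82 against 4.88% in H146, 2.52 times higher (log2 ratio 1.33), and 8.69% of 19633 genes had a higher ratio. H82 supplied 25 of 37 regions (67.6%, exact 95% interval 50.2 to 82%, counting error only), against 54.3% of all regions of both lists. Within 1 Mb to either side the ratio was 1.44, and over chromosome 7 it was 1.36, so these surroundings differed in the same direction and by less.

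Most of the added H82 sequence at EZH2 was in regions with no counterpart in H146. There were 16 of these, 7 in the body and 7 upstream, and 4 in H146 of which none was upstream. The widest H82-only region at any of the 10 genes was in intron 1 of EZH2, 3067 bp wide with its center 34952 bp from the start. A second one in intron 1 was 1475 bp wide and 10734 bp from the start, and another, of 1506 bp, lay 36500 bp upstream. The widest H146-only region, of 513 bp, was in intron 12. No other protein-coding gene starts in these flanks. The center of the 3067 bp region, shown because the region is the widest, is AT-rich as the whole of it is (39.5% GC), and the region held 7 CAGATG and 3 TAATCC words outside the stretch shown.
EZH2 intron 1, H82 only, chr7:148849219-148849518, minus strand: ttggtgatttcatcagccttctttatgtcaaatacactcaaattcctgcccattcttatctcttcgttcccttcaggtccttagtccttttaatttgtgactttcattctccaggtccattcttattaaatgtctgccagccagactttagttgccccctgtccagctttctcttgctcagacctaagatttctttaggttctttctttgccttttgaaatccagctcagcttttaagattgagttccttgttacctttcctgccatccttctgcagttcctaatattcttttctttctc

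EZH1, the homolog that often predominates in resting cells, lies at chr17:42700275-42745049 on the minus strand (ENSG00000108799.13). H82 had 24 regions over gene and flanks and H146 had 12, while the covered share was 17.5% and 14.0% (1.25 times, log2 ratio 0.33). This ratio depended on the window: the log2 ratio was 1.25 with flanks of 10 kb and 1.30 without regions near the start of a protein-coding gene. There were 13 H82-only regions against 2 H146-only ones, the widest 1551 bp, downstream of the gene. One region common to both lines, 10333 bp in H82 and 10190 bp in H146, held the starts of PLEKHH3, CCR10 and CNTNAP1. The starts of TUBG2, VPS25 and WNK4 were open in both lines as well, and that of RAMP2 in neither. H82 exceeded H146 by more within 1 Mb, 1.59 times in covered bases, than at the gene itself. One H146-only region, of 431 bp, had a near-identical copy elsewhere on chromosome 17 and is uncertain.

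EED lies at chr11:86201212-86278813 on the plus strand (ENSG00000074266.23), and SUZ12 at chr17:31937007-32001038 on the plus strand (ENSG00000178691.11). The body of EED was covered to 3.57% in H82 and 3.49% in H146, and that of SUZ12 to 3.40% and 3.06%. Neither body differed by as much as the lists as wholes. Around EED the flanks went opposite ways: upstream 9 regions over 14.0% in H82 and 6 over 8.08% in H146, downstream 1 over 1.81% and 4 over 3.62%. The widest H82-only region there, 2039 bp, lay 28794 bp before the annotated 5′ end, and the start of HIKESHI downstream was open in both lines. SUZ12 with its flanks had 14 regions in H82 and 10 in H146 over 5.69% and 5.26%, with the starts of UTP6 and LRRC37B open in both. SUZ12 has near-identical copies on chromosome 17, and 4 of its 14 H82 and 4 of its 10 H146 regions, the start included, matched one at 95% identity or more over at least 50% of their length, so reads there may belong to either copy.

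A short H82-only region within EED, 200 bp wide, is shown whole because it holds the words TAATCC of OTX2 (2 matches) and CAGATG (1) together. Capitals mark the E-box words CAGATG or CAGCTG, the OTX2 word TAATCC, the FOXA word TGTTTAC and the Alu repeat word GGGATTACA on either strand, here and in the other sequences of line-only regions.
EED, H82 only, chr11:86238301-86238500, plus strand: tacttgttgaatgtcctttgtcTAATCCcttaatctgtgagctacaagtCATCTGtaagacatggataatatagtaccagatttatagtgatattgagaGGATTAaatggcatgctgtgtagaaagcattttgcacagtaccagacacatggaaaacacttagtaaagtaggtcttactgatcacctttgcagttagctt

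KMT2D and KMT2C, the paralogous enhancer methyltransferases, differed from each other far more than either did between the lines. KMT2D lies at chr12:49018975-49060794 on the minus strand (ENSG00000167548.18) and is the shortest of the 10, at 41.8 kb; exons make up 49.3% of it. KMT2C lies at chr7:152134922-152436644 on the minus strand (ENSG00000055609.21) and is the longest, at 302 kb, with 5.59% in exons. The body of KMT2D was covered to 19.1% in H82 and 18.7% in H146, and that of KMT2C to 2.23% and 2.45%. With flanks the shares were 24.8% and 26.3% for KMT2D, and 3.05% and 3.0% for KMT2C. Neither gene came near 1.5-fold.

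In KMT2D the lines differed in number of regions and not in covered share. The body held 7 regions in H82 and 14 in H146, of which 6 and 12 touched an exon. An H82 region of 5132 bp across the 3′ end, which also lay over the start of PRKAG1, corresponded to 3 H146 regions of 2953, 417 and 563 bp. The other H146 additions were 5 short H146-only regions, 4 of which touched an exon, from 228 to 316 bp wide. In H82 no region of the body was specific to the line. The starts of WNT10B, WNT1, DDN, RHEBL1 and DHH in the flanks were open in both lines, as was that of LMBR1L at their edge. An unnamed coding gene (ENSG00000288710) had a region within 1 kb of its start in H146 only. That region is the one of 563 bp, which overlaps the H82 region of 5132 bp. It ended at 49023263 and the H82 region at 49023043, so the call turned on the 1 kb limit. In all, 24 of 25 H82 and 25 of 31 H146 regions overlapped the other line. The single H82-only region, 19177 bp upstream, is shown because 4 of the 35 CAGCTG words of all H82-only regions at the 10 genes stand in it.
KMT2D upstream, H82 only, chr12:49079821-49080120, minus strand: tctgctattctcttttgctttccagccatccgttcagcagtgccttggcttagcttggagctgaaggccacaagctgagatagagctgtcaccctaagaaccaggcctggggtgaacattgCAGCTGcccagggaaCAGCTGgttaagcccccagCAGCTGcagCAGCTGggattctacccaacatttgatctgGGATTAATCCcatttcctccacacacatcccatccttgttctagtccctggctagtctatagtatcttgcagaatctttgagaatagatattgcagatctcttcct

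KMT2C with its flanks had 17 regions in H82 and 15 in H146, and 8 in each overlapped the other line. Of the H146 regions 4 had near-identical copies on other chromosomes, among them the widest H146-only one, of 986 bp in intron 24, whose copies were on chromosome 21; in H82 it was 1. These are uncertain. No other protein-coding gene started in the flanks.

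KDM6A and KDM5A, the demethylases, had the lowest covered shares with 50 kb to either side; in the gene body alone that of EP300 in H146, 0.577%, was lower. KDM6A lies at chrX:44873188-45112779 on the plus strand (ENSG00000147050.18), and with its flanks it held 5 H82 regions over 1.76% and 6 H146 regions over 1.52%. No region lay in the 50 kb downstream in either line, and DUSP21, which starts inside the window, was open in neither. Within 1 Mb to either side of it H82 exceeded H146 2.06 times in covered bases, against 1.16 times at the gene. KDM5A lies at chr12:280057-389320 on the minus strand (ENSG00000073614.13), and had 8 regions in H82 and 5 in H146 over 2.59% and 2.15%. Its ratio of 1.6 in number rests on 3 regions, and the start of SLC6A13 in its flank had no region in either line. The widest line-only region of KDM6A, 2298 bp in intron 8, was H82-only. An H146-only region over exon 13 of KDM6A had a near-identical copy on chromosome Y.

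The acetyltransferase paralogs went opposite ways. EP300 lies at chr22:41092592-41180077 on the plus strand (ENSG00000100393.15) and CREBBP at chr16:3725054-3880713 on the minus strand (ENSG00000005339.15). EP300 with its flanks had 9 regions in H82 and 3 in H146, over 4.45% and 2.61%, 1.70 times higher in H82. CREBBP had 14 in H82 and 19 in H146, over 3.06% and 4.20%, and 91.4% of genes had a higher ratio of H82 to H146. The intervals of the H82 share of regions, 42.8 to 94.5% for EP300 and 25.5 to 60.8% for CREBBP (exact, 95%), overlap each other and both include the 54.3% of the lists as wholes.

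In EP300 the 3 H146 regions, at its start and at 2 sites downstream, all had a counterpart in H82, and the other 6 H82 regions had none in H146. Of those 6, 4 lay upstream and 2 in intron 1, between 282 and 1048 bp wide. The body of the gene beyond the start thus held 2 regions in H82 and 0 in H146. One downstream site was the start of L3MBTL2, which encodes a Polycomb protein of the PRC1 family. Within 1 Mb H82 exceeded H146 1.48 times.

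In CREBBP the difference was largest inside the gene. The body held 6 regions in H82 and 13 in H146, over 2.14% and 4.0%, while the flanks differed by 0.877 times downstream and 1.10 times upstream. Within 1 Mb to either side 12.2% was covered in H82 and 13.2% in H146, a ratio of 0.92, and over chromosome 16 it was 0.97. These surroundings thus leaned to H146 as well, and by less than the gene body. There were 8 H146-only regions in the body and 1 H82-only, the latter over exon 31. The H146-only regions were 200 to 612 bp wide; 3 were in intron 1, 1 in intron 2, and the widest lay over exon 14, 110025 bp from the start. Within the 10 gene bodies, an exon of the gene's MANE Select transcript was touched by 2 of the 25 regions found in H82 alone and by 8 of the 25 found in H146 alone. Of these 8, 4 were in KMT2D, which is 49.3% exon and had 0 H82-only regions in its body. The 1 in KMT2C and the 1 in KDM6A had near-identical copies on other chromosomes. The same shares over all genes were not computed, so no preference for exons can be read from these counts. The middle of the exon 14 region of CREBBP is shown because it is the widest H146-only region in the gene with the most of them. It holds none of the marked words.
CREBBP exon 14, H146 only, chr16:3770538-3770837, minus strand: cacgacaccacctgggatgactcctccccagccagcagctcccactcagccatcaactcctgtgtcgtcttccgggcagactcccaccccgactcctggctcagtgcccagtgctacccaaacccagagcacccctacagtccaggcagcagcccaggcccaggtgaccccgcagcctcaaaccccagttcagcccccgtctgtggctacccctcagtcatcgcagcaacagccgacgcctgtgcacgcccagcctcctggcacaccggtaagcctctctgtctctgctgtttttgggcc

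**Figure D4:**
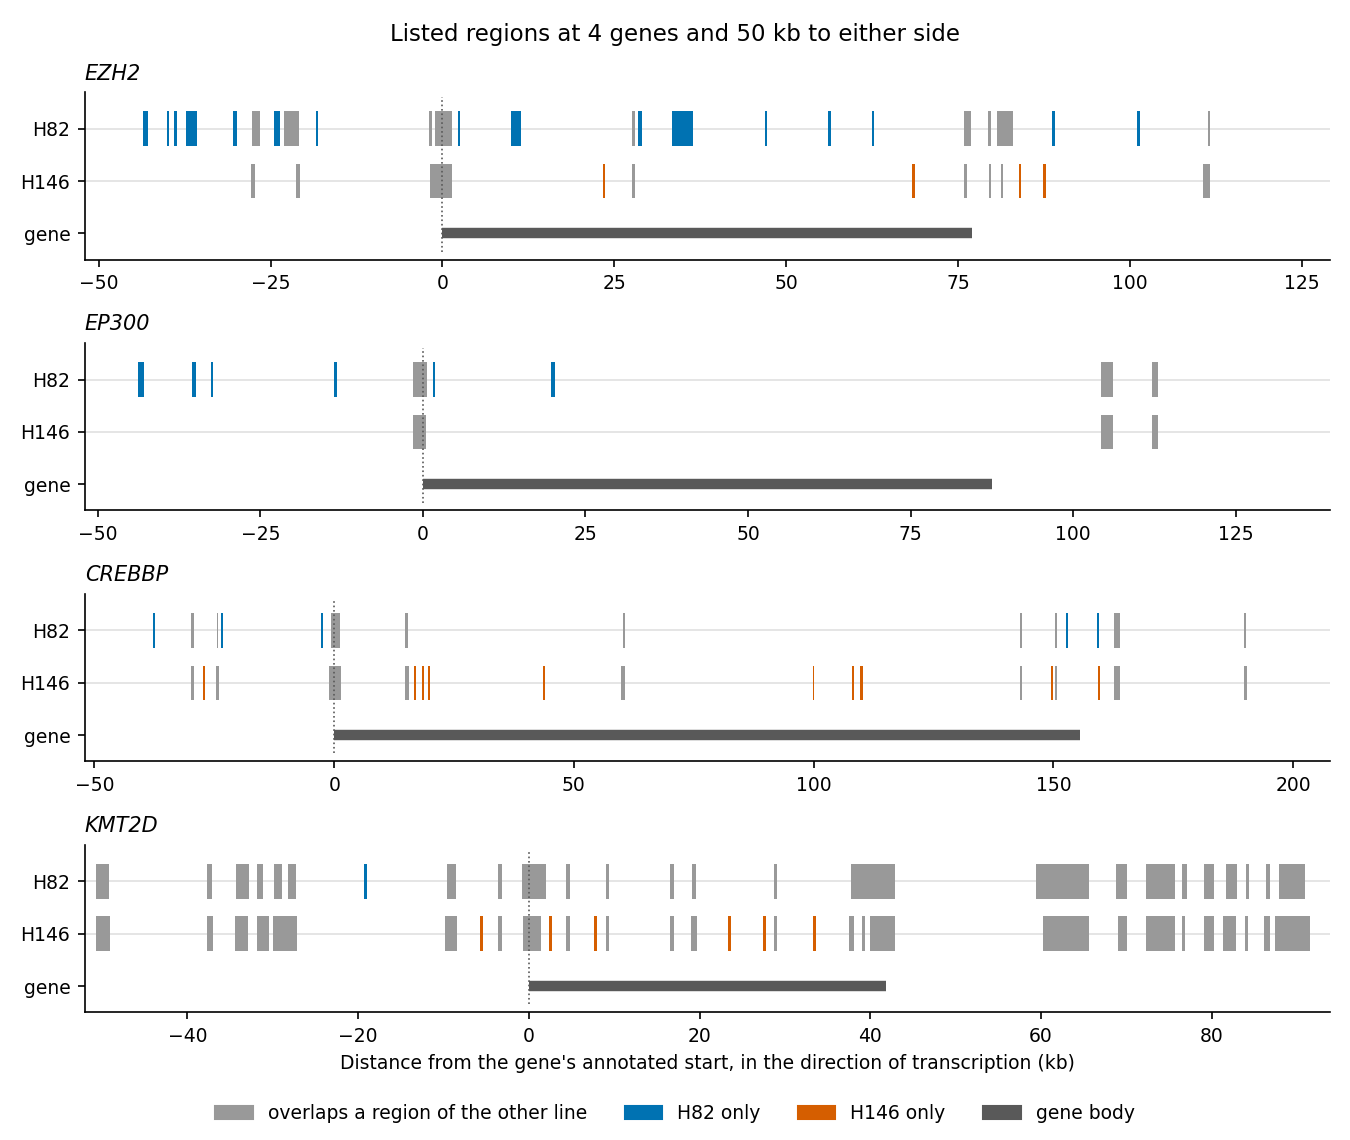
Listed regions at EZH2, EP300, CREBBP and KMT2D in H82 (upper row of each panel) and H146 (middle row), with the gene body below, in kb from the annotated start along the direction of transcription. Grey regions overlap a region of the other line, blue ones are H82-only and orange ones H146-only; regions under 0.35 kb are drawn 0.35 kb wide. Blue regions crowd intron 1 and the upstream flank of EZH2, and orange ones the bodies of CREBBP and KMT2D.

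The third question was how many regions were common to the lines. Over the 10 genes with their flanks, 86 of 155 H82 regions (55.5%, exact 95% interval 47.3 to 63.5%) overlapped the other line. So did 85 of 126 H146 regions (67.5%, 58.5 to 75.5%), and each share was a little under that of its whole list. Line-only regions made up 44.5% in H82 and 32.5% in H146. Over the same windows of all protein-coding genes they made up 38.8% and 24.9%. In the upstream flanks 31 of 68 H82 regions (45.6%) were H82-only and 6 of 40 H146 regions (15%) H146-only, against 35.0% and 21.2% over the upstream flanks of all protein-coding genes. In the gene bodies the line-only regions numbered 25 in each line, 42.4% of 59 and 41.0% of 61, against 39.2% and 27.4% over all genes. The median line-only region was 363 bp wide in H82 and 277 bp in H146 (377 and 315 bp over the whole lists), and the median common one 864 and 894 bp (610 and 662 bp). Of the H82-only ones 8 were at least 1 kb wide, and of the H146-only ones 0. None of the line-only regions lay over the start of a protein-coding gene, whereas 25 of 86 and 26 of 85 common ones did. Shares of regions at least 1 kb wide or over a start were not computed for the whole lists. Whether these counts are particular to the 10 genes is therefore not known.

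**Figure D5:**
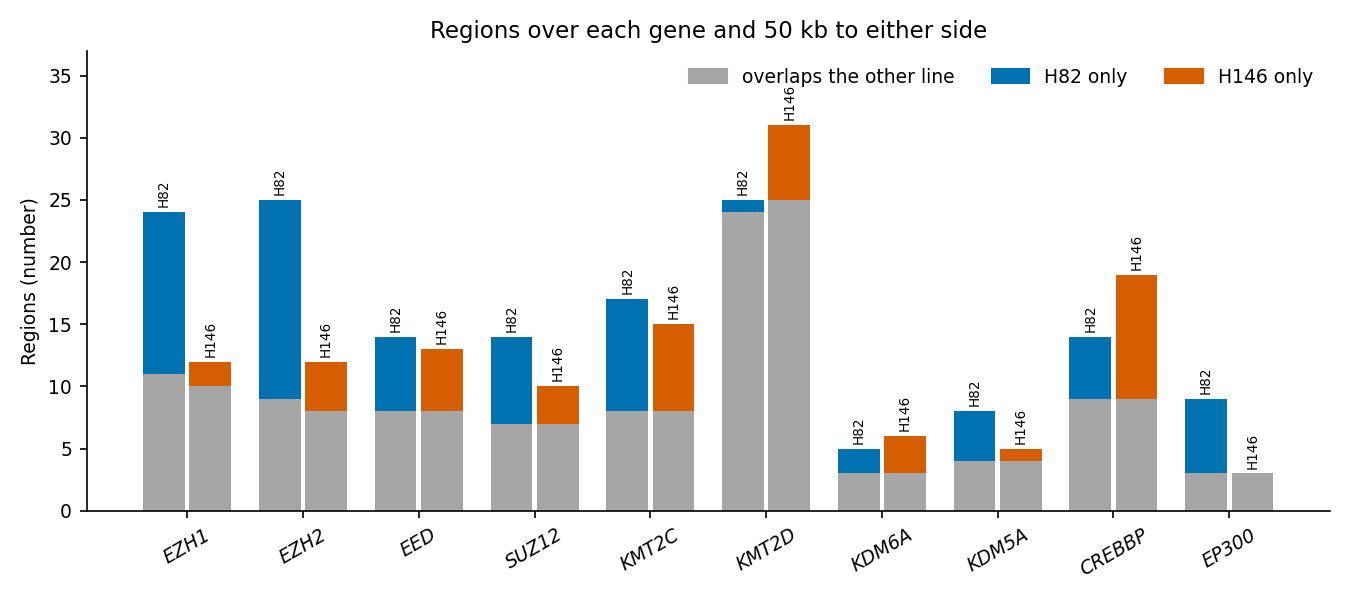
Number of regions over each gene and 50 kb to either side, left bar H82 and right bar H146. The grey part overlaps a region of the other line, and the colored part is specific to the line. H82-only regions are most numerous at EZH2 (16) and EZH1 (13), H146-only ones at CREBBP (10), and EP300 has none in H146.

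Words of lineage factors were counted in the line-only regions at these genes and over the whole lists. TAATCC, the word of OTX2 and related homeodomain factors, stood at 1.58 per kb in the H82-only regions and 0.291 per kb in the H146-only ones, against 1.26 and 0.448 over the whole lists. It had been chosen with the result over the whole lists known. Part of it was repeat sequence: GGGATTACA, which contains the word and is part of the Alu consensus, was in 22 of 69 H82-only regions (31.9%) and 1 of 41 H146-only ones (2.44%), against 11.5% and 4.20% over the whole lists. Outside GGGATTACA the density was 0.748 per kb in H82-only and 0.218 per kb in H146-only regions, against 0.984 and 0.323. CAGATG stood at 1.15 and 0.655 per kb (1.24 and 0.895 over the whole lists), and TGTTTAC of FOXA factors at 0.240 and 0.364 (0.130 and 0.314). CAGCTG was denser in the H82-only regions at these genes, 0.935 against 0.655 per kb, and less dense in those of the whole list, 0.810 against 0.878. The H146-only regions spanned 13.7 kb in all and held 4 TAATCC and 9 CAGATG words, so their densities are coarse.

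The last comparison placed the 10 genes beside 80 others of the same pathways, in 7 lists. At the annotated 5′ end, 75 of the 80 were open in both lines, AEBP2 and PHF19 in H82 only, and EZHIP, KAT8 and HDAC2 in neither. At the MANE Select start 78 of 79 were open in both, AEBP2, PHF19, KAT8 and HDAC2 among them. The exception was EZHIP, an inhibitor of PRC2, which was open in neither and had 3 regions in its surroundings in H82 and 0 in H146. AEBP2 and PHF19, accessory subunits of PRC2, thus differed between the lines at an alternative start and not at the main one.

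In covered share over gene and flanks, 25 of the 79 with at least 5 regions were at least 1.5 times higher in H82 and 0 in H146, beside the 29.0% and 4.89% of all genes. The share passing in H82 ran from 12.5% to 62.5% across the lists. Among PRC2 accessory subunits it was 5 of 8 (median log2 ratio 0.82), among the other demethylases of H3K27 and H3K4 3 of 6 (0.60), and among the other acetyltransferases 6 of 14 (0.31). Among PRC1 subunits it was 6 of 23 (0.17), among histone acetylation readers and deacetylases 2 of 6 (0.29), and among PR-DUB subunits, which remove the PRC1 mark, 1 of 6 (-0.01). It was 2 of 16 among the other KMT2 and SET1 genes (-0.06).

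The largest ratios were 3.15 for SCMH1 of PRC1, 3.06 for the histone chaperone RBBP4 and 2.96 for PHF19. RBBP4 had 21 regions in H82 and 7 in H146 over 12.8% and 4.16%, and PHF19 had 28 and 6 over 16.9% and 5.69%. Next were NCOA3 (2.76), an acetyltransferase coactivator, PHC2 (2.74) and the deacetylase HDAC1 (2.68). RYBP of variant PRC1 (2.50), NCOA6 of the KMT2C and KMT2D complexes (2.33), the PR-DUB deubiquitinase BAP1 (2.29) and the demethylase KDM1A (2.21) followed. RBBP5 of the KMT2 core (2.06), the acetyltransferase KAT2B (2.05) and RBBP7 (2.03), the paralog of RBBP4, were the remaining ones past 2-fold. Of these genes, HDAC1, RBBP4 and PHC2 start close together on chromosome 1, at 32292083, 32651142 and 33431095. KDM1A (23019443) and SCMH1 (41242306) start to either side of them. The surroundings of the pathway genes were not compared, so whether these ratios are particular to the genes is not known. None of the 79 reached 1.5-fold in H146; ASH2L, another subunit of the KMT2 core, stood at 1.43 and PSIP1, which tethers KMT2A to chromatin, at 1.46.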

How the data were processed

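ATAC-seq was carried out on untreated and FHD-286-treated H82 and H146 cells, 13 libraries in all. Per the methods of the study, the authors trimmed reads with Trim Galore 0.4.4, aligned them to hg38 with Bowtie2 2.3.4, removed duplicates with Picard, called regions per sample with MACS2, removed blacklisted ones and merged those within 500 bp into 1 list per line. The deposited lists hold region starts and ends in bp, with 0 columns of values per sample, so depth per library is unknown. A region called in any 1 library is listed, so a list grows with libraries and depth, and merging makes width differ from that of a single site. Coordinates are given 1-based.

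Regions were set against GENCODE release 44 with Python 3.11.15 and numpy 2.4.6, with at least 1 bp of overlap. Common and line-only calls differed from those of bedtools 2.31.1 for 0 regions in either line, and the counting was tested on simulated intervals. The covered share is the percent of a window's bases in regions. Near-identical copies were sought with minimap2 2.31 (95% identity over 50% of a region). Repeats less alike than this are not reported, so a region without a copy may still be repeat sequence. The word GGGATTACA was in 22 of 69 H82-only regions. An H82-only region of 369 bp in intron 4 of SUZ12 held it 2 times and had no copy reported. Exact binomial intervals at 95% came from scipy 1.17.1. Named are all 10 genes and, of the pathway genes, those with a start open in 1 line only or a ratio of at least 2, up to 15, with the widest regions and those over starts. EZHIP, KAT8, HDAC2, ASH2L, PSIP1, the H82-only EED region shown and the word GGGATTACA were chosen after their values were seen. The 10 genes, lists and words were chosen with earlier results of these data known. Alternatives covered the flank, region width, the TSS definition, overlap, scaling and starts left out. Some sequences and 1 marker gene are not reported here.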

Additional observations from a re-analysis of the deposited data

How the results depend on the processing

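Regions were pooled per line, so no replicate could be left out. No paired analysis was possible because the lists hold no values per library. Of 160 recomputed values, 138 kept within their interval or within 1.5 times. Among these were the log2 ratios of the 10 genes, each of which kept in 9 of 9 alternatives. Their intervals came from counts of regions and were wide: EZH1 counted as kept when its ratio went from 0.33 to 1.30. The log2 ratios of single genes could thus hardly move, and the 22 values that moved were all among the others. EZH2 and EP300 stayed higher in H82, and CREBBP in H146, under each of 9 alternatives. The log2 ratio of EZH2 ran from 0.86 to 1.83, that of EP300 from 0.42 to 1.74 and that of CREBBP from -0.90 to -0.33. KMT2C kept its sign in 3 of 9, which at a ratio near 0 sets no direction. The number of genes at least 1.5 times higher in H82 in covered share fell to 1 (EZH2) with regions of at least 500 bp, with either scaling by a line's own total, and at 2-fold; it rose to 3 with 10 kb flanks and without regions near a start (EZH1 added) and without common edges (EED added). The number higher in H146 in covered share became 1 (CREBBP) for the gene body, for 10 kb flanks and with scaling over the genome. In number of regions it became 2 for the gene body and for 10 kb flanks (KMT2D and CREBBP) and with regions of at least 500 bp (KDM6A and CREBBP), and 1 with scaling over the genome (CREBBP), over the same chromosome (KDM6A) or without common edges (CREBBP), the last added after the data were seen. The median log2 ratio became -0.13 when scaled over the same chromosome. The overlapping share of H82 regions became 44.5% with 50% overlap of both regions and 45.4% without regions near a start. For H146 these gave 54.8% and 58%, and regions of at least 500 bp gave 76.2%. In the whole region over the start, words were found in 7 genes for E2F, 8 for NFY and 6 for the E-box. The causes were not tested, beyond fewer regions or wider windows by construction.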
